A study of Mus musculus with 4 samples.

Results

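The genes described here are 10 markers of endothelial cells, the cells that line blood vessels, measured in cultured mouse islets of Langerhans with and without a glucokinase activator. The members Pecam1, Cdh5, Esam, Kdr, Flt1, Tek, Tie1, Emcn, Plvap and Ramp2 were taken by gene name, and 12 probes of the array carried one of these names, out of 33697 named probes for 26265 genes. Islets had been isolated from C57BL/6 mice at 8 weeks of age. They were kept for 24 h in RPMI1640 medium with 5.6 mM glucose and either 30 µM of the activator, called GKA in the labels, or its DMSO vehicle. Each group had 2 samples, and each sample was hybridised to 1 one-colour array. Whether replicates were separate mice or separate cultures is not in the labels, so each p-value reflects the spread among these 4 samples alone, and that spread may be technical.

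Islets are among the most richly perfused tissues, and their capillaries are lined by a thin, fenestrated endothelium. These cells grow and survive on VEGF-A, which beta cells secrete, and the angiopoietins, acting through a second receptor pair, set how stable the vessels are. Endothelial cells are a minority in an islet, and an isolated islet in culture has no blood flow. In whole-islet RNA, fewer endothelial cells and less RNA per endothelial cell cannot be told apart.

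Vascular genes carry binding sites for the ETS family of transcription factors, whose endothelial members include ERG and FLI1. Upstream sequence from RefSeq was at hand for 5 of the 10 members, Kdr, Flt1, Tek, Tie1 and Emcn. The 250 bases before the transcription start are printed for the 2 VEGF receptors, which share a ligand, and for Emcn, the 1 member that was lower with GKA. They run 5′ to 3′ on the gene's strand in build GRCm38.p6, and capitals mark each AGGAAG, an ETS core with its flanks, or its reverse complement.
Emcn, chr3:137340828-137341077, plus strand: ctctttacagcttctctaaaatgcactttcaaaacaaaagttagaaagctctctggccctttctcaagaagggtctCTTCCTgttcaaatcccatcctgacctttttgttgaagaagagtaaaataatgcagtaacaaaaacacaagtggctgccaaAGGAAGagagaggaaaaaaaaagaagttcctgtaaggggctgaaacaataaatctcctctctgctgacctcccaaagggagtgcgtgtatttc
Flt1, chr5:147726012-147726261, minus strand: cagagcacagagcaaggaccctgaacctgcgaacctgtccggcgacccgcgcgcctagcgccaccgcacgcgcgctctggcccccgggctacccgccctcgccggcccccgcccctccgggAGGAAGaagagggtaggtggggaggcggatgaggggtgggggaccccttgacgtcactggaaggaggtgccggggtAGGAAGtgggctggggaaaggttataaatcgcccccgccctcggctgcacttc
Kdr, chr5:75978456-75978705, minus strand: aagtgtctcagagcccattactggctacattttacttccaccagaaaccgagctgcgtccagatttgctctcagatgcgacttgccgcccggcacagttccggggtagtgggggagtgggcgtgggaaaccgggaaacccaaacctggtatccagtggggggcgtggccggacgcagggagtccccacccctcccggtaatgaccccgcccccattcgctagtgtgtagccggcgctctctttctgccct
AGGAAG was present on either strand in 3 of the 5 members, Emcn, Flt1 and Tie1. The same letters were present in 29.5% of all 32851 upstream windows of this length. An ETS core with other flanks was not searched for. The absence of AGGAAG from Kdr and Tek thus does not show that their windows lack a core. In Emcn the matches began 174 and 93 bases before the start, and in Flt1 129 and 53 bases before it. The cAMP response element TGACGTCA, a palindrome, lay 81 bases before the Flt1 start and in 0 of the other 4 members, against 1.55% of all windows, and it overlapped no AGGAAG. The letters ACGTG, a form of the hypoxia response core, were in 0 of these 5 windows on either strand, against 16.6% of all windows. The other form, GCGTG, was not searched for, and the printed windows of Emcn, Flt1 and Kdr hold it on either strand. The absence of ACGTG thus does not show that these windows lack the core. A match describes letters only, and no binding was measured.

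All 12 member probes were well above background on all 4 arrays, so each of the 10 genes was tested and the presence of endothelial RNA was borne out in every sample. Across the series, between 59.7% and 63.5% of 39429 probes were well above background on an array. The 75th percentile of intensity was lower with GKA (557 and 598) than with vehicle (751 and 755). Log2 signals below are relative to that percentile of the same array, and a difference is GKA minus vehicle on this scale. With 4 arrays in all, precision is limited by their number. The vehicle arrays lay at the first 2 positions of the slide and the GKA arrays at the next 2, so position and treatment cannot be told apart. The endocrine identity of the samples was borne out by hormone genes. Log2 signals of Ins1, Ins2, Gcg and Ppy were all at 8.43 or above, and those of Sst ran from 7.22 to 8.19.

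The endothelial markers did not move together. Cdh5 and Ramp2 were higher with GKA, Emcn was lower, and the other 7 did not pass the test. In limma, 2 of 10 members were higher and 1 was lower at a Benjamini-Hochberg adjusted p under 0.05, where 9.11% of all 17178 genes tested were higher and 8.01% lower. With 10 genes, these counts are near what the background shares give. The median difference of the members was -0.03, beside -0.01 for all genes tested. Both GKA arrays lay above both vehicle arrays for 4 members and below them for 4, and 32.4% and 33.5% of all genes did so (65.9% in either direction). With 2 arrays against 2, an exact two-sided permutation test cannot give a p below 0.333, so none is reported.

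**Figure D1:**
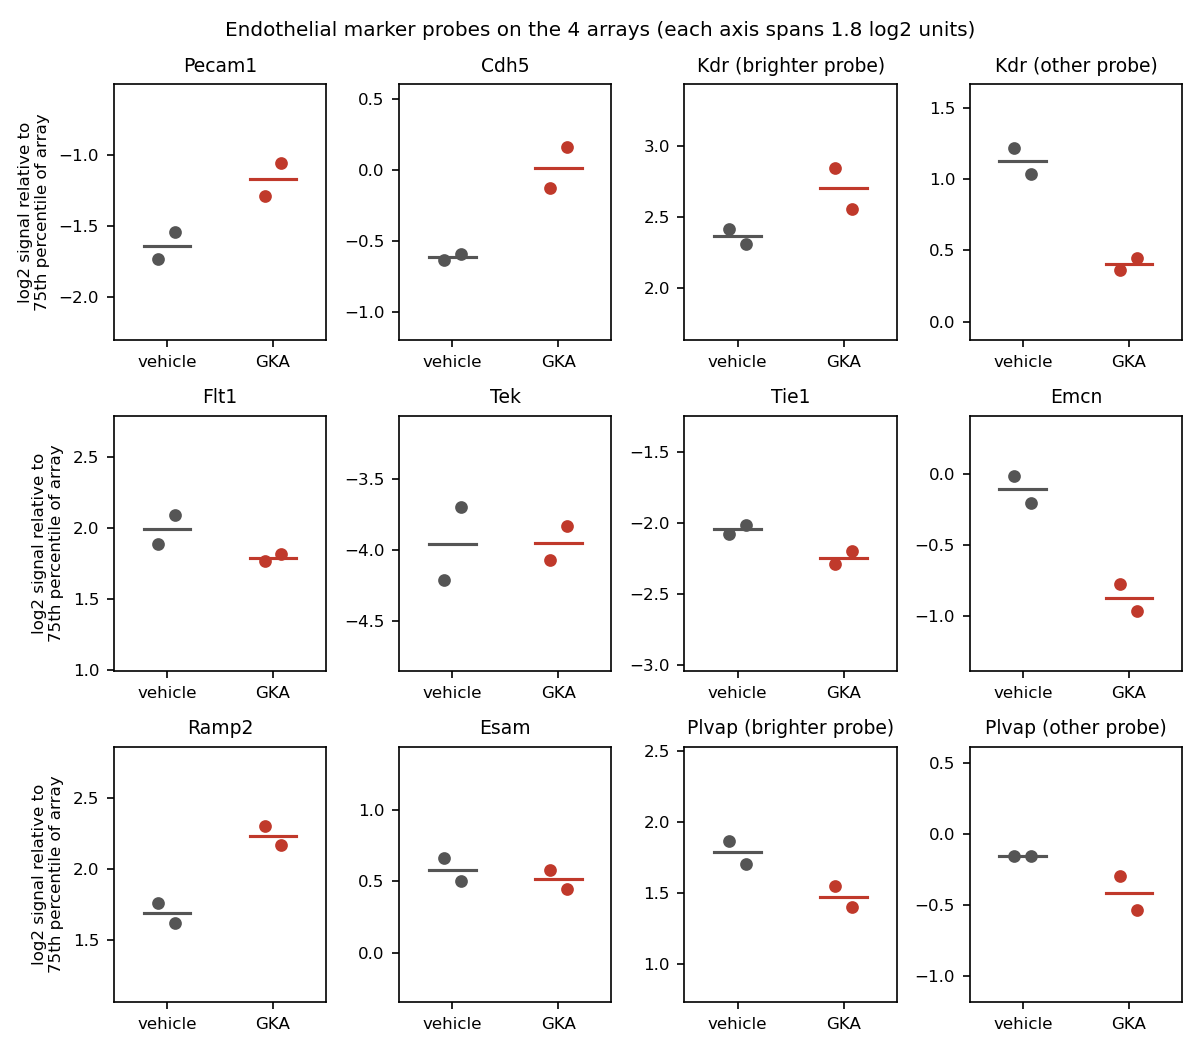
Log2 signal of each of the 12 member probes relative to the array's 75th percentile, with 1 point per array, grey for vehicle and red for GKA, and a bar at the mean of each group of 2 arrays. Every panel spans the same range, and the points separate upward for Cdh5 and Ramp2, downward for Emcn and the other probe of Kdr, and overlap for Tek and Esam.

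Among the junction proteins, Cdh5 encodes VE-cadherin, which joins endothelial cells at adherens junctions. Its probe is placed on chromosome 8, 106668159 to 106668218. Its log2 signals were -0.63 and -0.59 with vehicle and -0.12 and 0.16 with GKA. The groups did not overlap, and the GKA arrays differed more from each other than the vehicle arrays did. The difference was 0.63 ± 0.14 (SE), a 1.55-fold higher level (adjusted p = 0.0404 in limma). Cdh5 did not pass when any 1 of the 4 arrays was left out (adjusted p from 0.0758 to 0.173, differences from 0.49 to 0.78).

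Pecam1 encodes an adhesion molecule of endothelial junctions that leukocytes and platelets also carry. Its log2 signals were -1.74 and -1.54 with vehicle and -1.29 and -1.06 with GKA, again without overlap. The difference of 0.47 ± 0.14 did not pass (adjusted p = 0.0820, 95% interval 0.10 to 0.83). Esam, an adhesion molecule found at endothelial tight junctions, stood at 0.66 and 0.50 with vehicle and at 0.58 and 0.45 with GKA. Here the groups overlapped, and the interval of the difference ran from -0.39 to 0.25. The 3 junction genes had differences of 0.63, 0.47 and -0.07, of which that of Cdh5 alone passed here. With normexp background correction and the 75th percentile, Pecam1 passed as well (0.40, adjusted p = 0.0320).

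Kdr, the main signalling receptor for VEGF-A, was read by 2 probes that pointed in opposite directions. The brighter probe (chromosome 5, 76330395 to 76330454) had log2 signals of 2.41 and 2.31 with vehicle and 2.84 and 2.55 with GKA. It represents the gene in the test and did not pass, with a difference of 0.34 ± 0.15 (adjusted p = 0.162, 95% interval -0.03 to 0.70). The other probe (chromosome 5, 76329309 to 76329368) lies 1086 bases away, further along this minus-strand gene. Its log2 signals were 1.22 and 1.04 with vehicle and 0.37 and 0.44 with GKA. The groups were well apart on it, and its difference was -0.73 ± 0.13 (adjusted p = 0.0224 in a limma fit of all 22139 kept named probes, of which 7.99% were lower).

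The other probe of Kdr was printed 10 times on each array, so its precision within an array can be seen. The 10 spots, less 1 outlier on 3 of the arrays, had processed intensities from 1628 to 1889 and from 1434 to 1666 with vehicle. With GKA they ran from 659 to 793 and from 780 to 867. The lowest vehicle spot was thus brighter than the highest GKA spot. The log2 ratio of the brighter probe to the other was 1.19 and 1.27 with vehicle and 2.48 and 2.11 with GKA. This change of 1.06 cannot be altered by a scaling that applies 1 factor to each array. Among 4150 genes with several kept probes, the median gap between the highest and the lowest difference was 0.15, and 2.48% of them had a gap at least as wide as that of Kdr. Which transcripts each probe reads was not tested, and the table names no genome build for the positions.

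**Figure D2:**
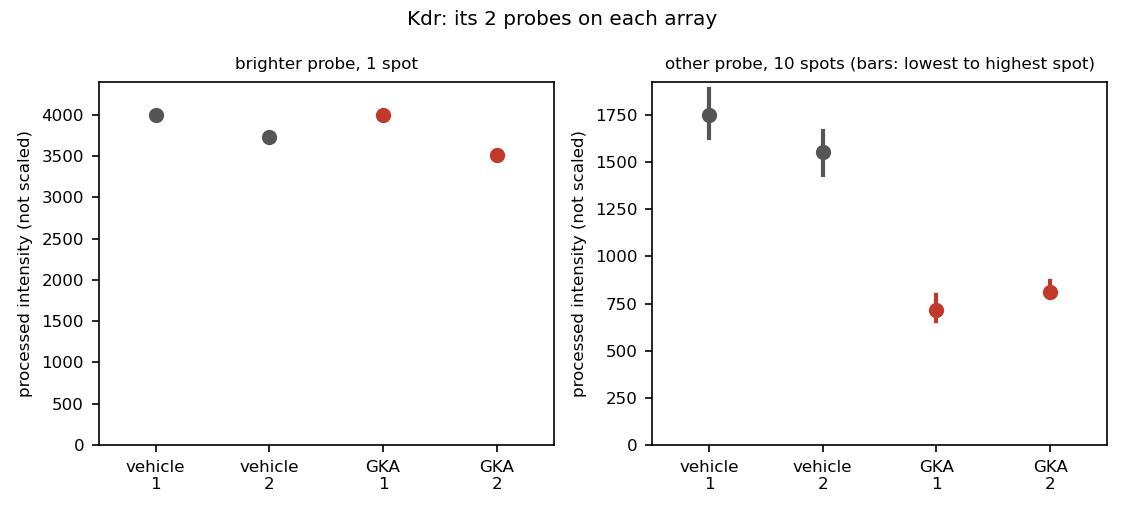
Processed intensity, before scaling between arrays, of the brighter Kdr probe (left, 1 spot) and of the other Kdr probe (right, mean of up to 10 spots with a bar from the lowest to the highest spot) on each array, both axes starting at 0. The left points lie between 3507 and 4002 on all 4 arrays, while the right ones are near 1752 and 1555 with vehicle and 718 and 814 with GKA.

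Flt1 encodes the other VEGF receptor of the set, which binds VEGF-A tightly and also occurs as a soluble decoy. Its log2 signals were 1.89 and 2.09 with vehicle and 1.76 and 1.82 with GKA, so the GKA arrays lay just below the vehicle arrays. The difference of -0.20 ± 0.13 did not pass (adjusted p = 0.317, 95% interval -0.52 to 0.12).

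Tek and Tie1 form the receptor pair of the angiopoietins. Tek, which binds the ligands, was the member nearest to background, with processed intensities of 40.4 and 58.2 for vehicle and 33.0 and 41.9 for GKA. Its log2 signals of -4.21 and -3.70 with vehicle enclosed those of -4.08 and -3.84 with GKA, and its interval was the widest among the members, from -0.52 to 0.52. Tie1, the partner that modulates Tek, stood at -2.08 and -2.02 with vehicle and at -2.29 and -2.20 with GKA. Its groups did not overlap, but the difference of -0.20 ± 0.11 did not pass (adjusted p = 0.271).

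Emcn, a sialomucin on the surface of capillary and venous endothelium, changed most among the members. Its probe is placed on chromosome 3, 137086389 to 137086448. Before scaling, its intensities were 743 and 657 with vehicle and 325 and 307 with GKA. On the scaled log2 axis it stood at -0.02 and -0.20 with vehicle and at -0.78 and -0.96 with GKA, with both GKA arrays clearly below. The difference was -0.76 ± 0.14 (adjusted p = 0.0251), which is 1.69-fold higher with vehicle. Without vehicle replicate 1 it was -0.67 (adjusted p = 0.0802), without GKA replicate 1 it was -0.85 (adjusted p = 0.0764), and without GKA replicate 2 it was -0.67 (adjusted p = 0.133), so the call was lost. It was kept without vehicle replicate 2 (-0.85, adjusted p = 0.0357).

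Plvap forms the diaphragms that span the fenestrae of capillaries such as those of islets. Its brighter probe stood at 1.87 and 1.70 with vehicle and at 1.55 and 1.40 with GKA. The difference of -0.31 ± 0.13 did not pass (adjusted p = 0.149, 95% interval -0.64 to 0.01). Unlike those of Kdr, the 2 probes of Plvap, 8862 bases apart, gave like values, the second having a difference of -0.26.

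Ramp2 encodes the accessory protein that turns the receptor Calcrl into a receptor for adrenomedullin. Its probe is placed on chromosome 11, 101109501 to 101109560. Its log2 signals were 1.76 and 1.62 with vehicle and 2.30 and 2.17 with GKA, without overlap. The difference was 0.54 ± 0.12, or 1.46-fold (adjusted p = 0.0420), and it did not pass without any 1 of the 4 arrays (adjusted p from 0.0876 to 0.166, differences from 0.48 to 0.61). The probe of its partner Calcrl was well above background on 0 of the 4 arrays.

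The position of these differences around 0 depended on how the arrays were scaled. Most probes were dimmer on the GKA arrays before scaling, and the median of all genes lay at -0.40 without scaling and at -0.61 when the E1A spike-in controls set the scale. Emcn was below 0 under each of 6 ways of scaling and background correction, from -0.66 to -1.36. Cdh5 was above 0 under each of them but stood at 0.25 without scaling and 0.04 with spike-ins, and did not pass in either (adjusted p = 0.247 and 0.923). Ramp2 stood at 0.16 and then at -0.05, a change of sign. This spike-in scale left out the outlier spots of each array. Over all E1A spots the mean log2 difference was 0.10, less than the shift from -0.40 to -0.61 above. The sign of a value near 0 with spike-ins, here and below, thus depends on the spots used. Without scaling, 0 members were higher and 5 were lower, namely Emcn, Esam, Flt1, Plvap and Tie1, where 750 of all genes were higher and 7654 lower. In the authors' deposited table, whose ratios lie close to the unscaled values, the ratio of GKA over control was 0.451 for Emcn, 1.20 for Cdh5 and 1.12 for Ramp2, and it was 0.969 and 0.463 for the 2 probes of Kdr.

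**Figure D3:**
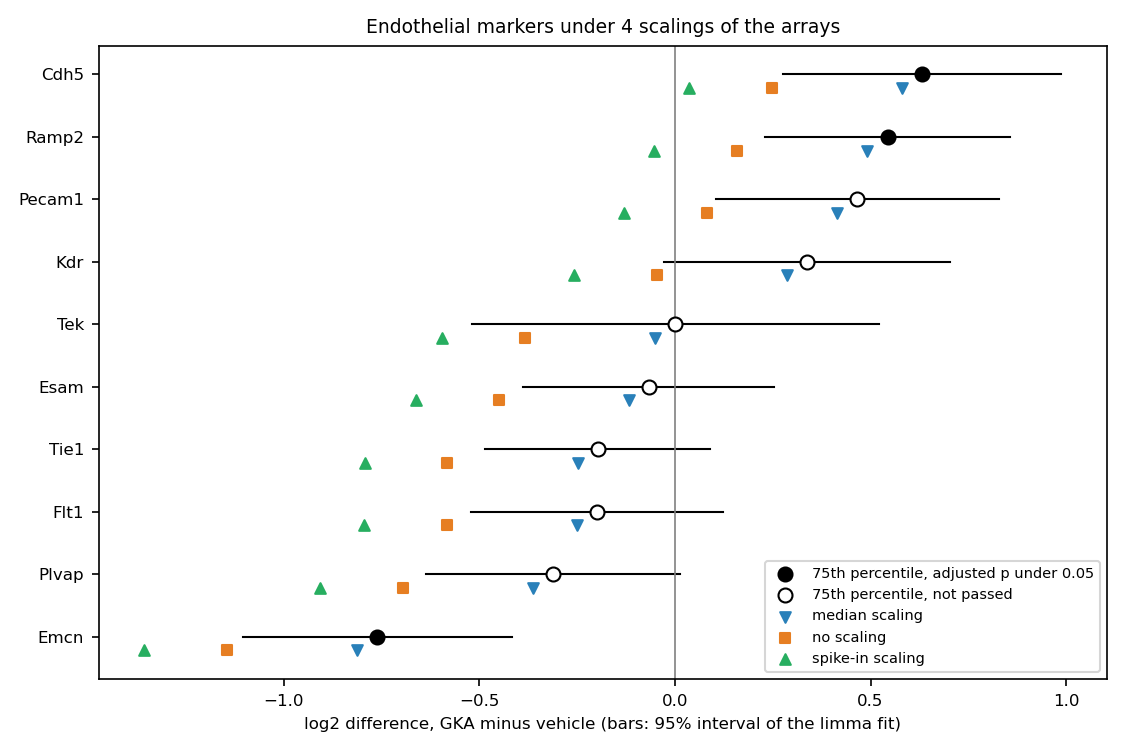
Log2 difference, GKA minus vehicle, of the 10 members with its 95% interval from the limma fit under 75th percentile scaling (circles, filled where the adjusted p was under 0.05), and the same difference with median, no and spike-in scaling (coloured marks). Emcn lies left of 0 under all 4 scalings, and the marks of every member shift left together without scaling and with spike-ins.

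Ratios between members within an array do not depend on a scaling that applies 1 factor to each array. The log2 ratio of Cdh5 to Emcn was -0.62 and -0.39 with vehicle and 0.65 and 1.12 with GKA, a change of 1.39. That of Emcn to Ramp2 was -1.77 and -1.82 with vehicle and -3.08 and -3.13 with GKA, a change of -1.30. The ratio of Cdh5 to Plvap changed by 0.94 and that of Cdh5 to Esam by 0.70, each with no overlap between the groups. These pairs were chosen after their values were seen, and they set members of unlike differences against each other. Of all 45 pairs of members, 31 had ratios that did not overlap between the groups. The ratio of Cdh5 to Ramp2 was among those that did, with a change of 0.09, as was that of Flt1 to Tie1. Of all single genes tested, 65.9% did not overlap between the groups. The share for ratios of other gene pairs was not tested, and many of the 45 pairs share a member. The count of 31 thus does not show that the members diverge more than other genes do. A ratio that differs between the groups does not show which of its members changed.

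The spread between replicates was of the same order for the members as for other genes. The median gap between the 2 arrays of a group was 0.16 for the members with vehicle and 0.17 with GKA, beside 0.15 and 0.14 for all genes. Replicate 2 exceeded replicate 1 in 5 of 10 members in each group. These were the same 5 in both, namely Pecam1, Cdh5, Flt1, Tek and Tie1. The other members, Kdr by its brighter probe, were lower in replicate 2 in both groups. Why same-numbered replicates moved alike in the members was not tested.

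Other genes of the endothelium and of the pathways that the members belong to were read from 7 lists, with 92 measured genes in all. Of these, 6 were higher and 7 lower with GKA in limma, with a median of -0.03, beside 17.1% of all genes in either direction. The counts were 4 and 5 without vehicle replicate 1, 8 and 5 without vehicle replicate 2, 1 and 1 without GKA replicate 1 (Apln and Aplnr), and 0 and 1 without GKA replicate 2 (Selp). Without scaling they were 4 and 42, with spike-ins 1 and 40, with normexp and the 75th percentile 15 and 8, and with normexp and quantile scaling 9 and 10.

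Of the ligands and co-receptors of the VEGF and angiopoietin systems, 1 of 10 measured genes rose, 1 fell and 8 did not pass. Angpt2, the angiopoietin that endothelial cells themselves release and that loosens vessels, stood at 0.91 and 0.97 with vehicle and 1.75 and 1.83 with GKA, a difference of 0.85 ± 0.11 (adjusted p = 0.0139). With spike-ins Angpt2 stood at 0.25 and did not pass (adjusted p = 0.480 in limma), and it ran from 0.80 to 0.89 with 1 array left out. Vegfb, a ligand of Flt1, had a difference of -0.65 ± 0.14 (adjusted p = 0.0387), and from -0.79 to -0.50 with 1 array left out. Vegfa, the ligand of Kdr and Flt1, did not pass (0.10 ± 0.15, adjusted p = 0.651), and lay below 0 without scaling, with spike-ins and without GKA replicate 2. The single probe of Angpt1, the other main ligand of Tek, was well above background on 0 arrays.

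Of the adrenomedullin and RAMP genes, 1 of 6 measured rose and 0 fell. It was Adm, the ligand of the Ramp2 receptor, at -2.91 and -1.74 with vehicle and 0.31 and -0.09 with GKA. The difference was 2.43 ± 0.39 (adjusted p = 0.0198). Ramp3, a relative of Ramp2, did not pass at 0.56 ± 0.19 (adjusted p = 0.108) and stood at -0.04 with spike-ins.

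Of 17 genes of junctions and adhesion, 1 rose, 1 fell and 15 did not pass. The leukocyte-binding selectin Selp, which platelets also carry, had a difference of -1.22 ± 0.21 (adjusted p = 0.0237), which was -0.27 and did not pass with normexp and the 75th percentile (adjusted p = 0.0876). The tight junction protein gene Ocln, which epithelia also express, had a difference of 0.88 ± 0.13 (adjusted p = 0.0160), and of 0.36 on its other probe. Cldn5, the claudin of endothelial tight junctions, did not pass at 0.51 ± 0.13 (adjusted p = 0.0523). It stood at -0.08 with spike-ins, and it passed with normexp and the 75th percentile (adjusted p = 0.0156), with normexp and quantile scaling (adjusted p = 0.0223) and among probes well above background on all 4 arrays (adjusted p = 0.0405).

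Of 22 other endothelial markers measured, 3 rose, 4 were called lower, Aplnr among them, and 15 did not pass. Cav1, on the same list, was well above background on no more than 1 array and was not tested. Apln, the ligand of the apelin receptor, rose by 1.30 ± 0.14 (adjusted p = 0.00889). Its receptor gene Aplnr cleared the background limit with vehicle but not with GKA and was at least 1.89-fold lower with GKA (adjusted p = 0.0174). Aplnr was tested only because of its vehicle level, so a difference was built into its choice and the call is no support for one. With normexp and the 75th percentile its difference was 0.02 (adjusted p = 0.900). The water channel gene Aqp1 (0.56 ± 0.12) and the proteoglycan gene Esm1 (0.52 ± 0.12) also passed, and both lay below 0 with spike-ins. Cd93, a C-type lectin of endothelial cells and myeloid cells, fell by 1.01 on the log2 scale, and Gpihbp1, which holds lipoprotein lipase on capillaries, had a difference of -0.87 ± 0.14. The fourth was the thrombin receptor Thbd, at -0.70.

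Of 19 endothelial transcription factors, 0 rose and 1 fell. It was Sox18, a SOX factor of vessels, at -0.77 ± 0.11 (adjusted p = 0.0170). The ETS genes Erg and Fli1 did not pass, at -0.16 and -0.22. In limma, 0 of 10 Notch pathway genes and 0 of 8 genes of the vascular basement membrane passed, with medians of -0.05 and -0.07. Rbpj and Notch4 stood at 0.05 and 0.02, and the collagen genes Col4a1 and Col4a2 at -0.18 and -0.09.

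**Figure D4:**
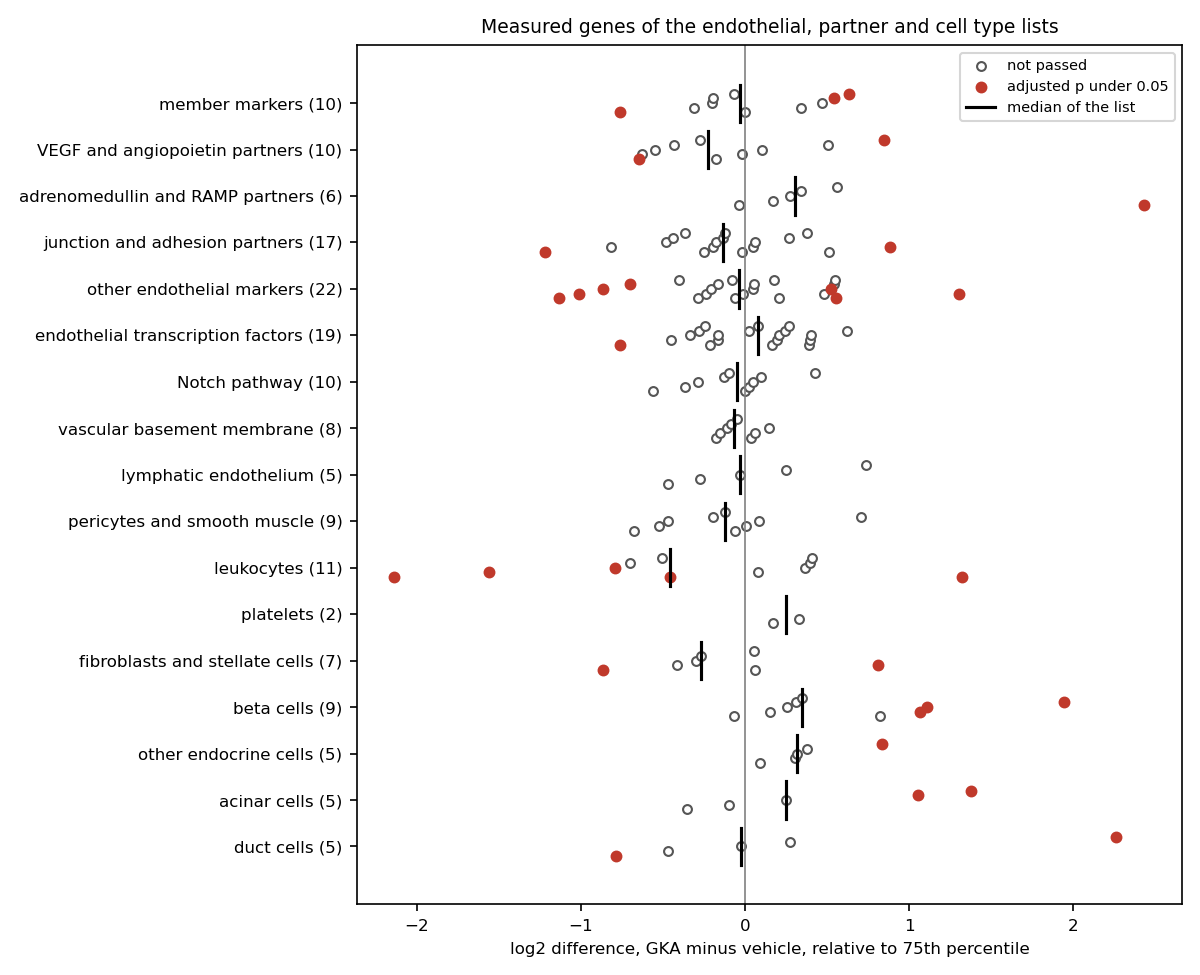
Log2 difference, GKA minus vehicle, of every measured gene in the 10 members (top row), the 7 lists of partners and other endothelial genes, and 9 lists of other cell types, with the number of measured genes in parentheses, filled points for an adjusted p under 0.05 in limma and a bar at each list's median. The members and the 7 lists of partners and other endothelial genes have points on both sides of 0 and medians between -0.23 and 0.31.

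Likeness to the members that passed was measured over the 4 arrays as the root mean square difference of mean-centred log2 signals, among 101 genes of these lists and the members. Closest to Cdh5 were Pecam1 (0.10), Angpt2 (0.13) and Procr (0.13), the endothelial protein C receptor gene. Closest to Emcn were Gpihbp1 (0.07), Vegfb (0.09) and Sox18 (0.11). Closest to Ramp2 were Hey1 (0.08), Esm1 (0.08) and Aqp1 (0.10). With 4 arrays in 2 groups, such a likeness mostly reflects the size of the difference between the groups.

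Other cells of the preparation also carry some of these genes, and their markers were read beside them. Beside the counts in this paragraph, 9.11% of all genes tested were higher and 8.01% lower. Of 11 leukocyte markers, 1 was higher and 4 were lower with GKA, with a median of -0.46. Lyz2, 1 of the 4, was well above background on 2 vehicle arrays and 1 GKA array. It was tested only because of its vehicle level, so its call is no support for a difference. Ptprc, another of them, barely passed (adjusted p = 0.0498 in limma) and stood at 0.05 with normexp and the 75th percentile. The summed signal of the leukocyte markers, in multiples of the 75th percentile, ran from 10.9 to 11.9 with vehicle and from 10.5 to 11.5 with GKA. That of the 10 members ran from 19.2 to 19.9 and from 20.3 to 22.1. Kdr entered this sum by its brighter probe alone, and its other probe pointed the opposite way. The direction of the sum therefore rests in part on the choice of that probe. It also depends on the scaling, because the 75th percentile itself was lower with GKA. The sums thus do not show that endothelial RNA rose. Of 6 platelet markers, Pf4 (0.33, adjusted p = 0.400) and Gp1bb (0.17, adjusted p = 0.425) were well above background on all 4 arrays and did not pass the test. Itga2b, Gp9, Ppbp and Treml1 did not pass the filter on dim probes, Itga2b being well above background on 1 array and the others on 0. In limma, 0 of 9 pericyte and smooth muscle markers passed, with Cspg4 at -0.68 (adjusted p = 0.0514) and Rgs5 at 0.70 (adjusted p = 0.130), and 0 of 5 lymphatic markers passed. Fibroblast and stellate cell markers had 1 higher and 1 lower of 7, duct cell markers 1 and 1 of 5, acinar cell markers 2 and 0 of 5, beta-cell markers 3 and 0 of 9, and markers of other endocrine cells 1 and 0 of 5. The part of these cells in the values of the members was not tested.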

How the data were processed

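Each of the 4 array files holds 1 sample. Per the file headers, the authors' spot intensities were made with Agilent Feature Extraction 10.7.3.1, background-subtracted, on a linear scale, while the submitters' processing notes name version 9.1. They were not scaled between arrays. The authors' deposited table gives 1 intensity per group and 1 ratio of GKA over control per probe, besides gene names and probe positions. Its build is not given in the sources used here, and 8.59% of positions lay inside the named gene in GRCm38.p6, so they were not annotated further.

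Outlier and control spots were left out, log2 intensities were averaged per probe, and each array's 75th percentile was subtracted. A probe was kept where both arrays of either group had it well above background, and the probe with the highest mean signal represented a gene. A group with no array above background gives a bound only: the brighter group's mean log2 value against the dimmer group's, the latter no lower than the lowest value well above background on each array. limma 3.58.1 in R 4.3.3 fitted all 17178 genes without covariates (2 residual and 3.33 prior degrees of freedom), two-sided, with Benjamini-Hochberg adjustment and a threshold of 0.05, and was tested on simulated data. Same-numbered replicates were not paired (r = 0.08 between their deviations over genes). normexp used median spot intensities, since the files have no mean. Gene names are those of the array design.

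All members were to be named, with up to 3 passing genes per direction of each partner or cell type list, or its 2 brightest where none passed. For the cell type lists mostly counts are given, and other genes were named after their values were seen. The members and lists were chosen with earlier results of these data known.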

Additional observations from a re-analysis of the deposited data

How the results depend on the processing

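The 2 higher members (Cdh5, Ramp2) became 0 without scaling, with spike-in scaling, without the filter on dim probes and with the replicate block, and 1 with median scaling, which kept Ramp2, and 3 with normexp and the 75th percentile, which added Pecam1. They were 0 without any 1 of the 4 arrays (from 0 to 0). The 1 lower member (Emcn) became 5 without scaling, 4 with spike-ins, 0 without the filter, and 2 when Kdr and Plvap were read by their other probe, an alternative added after seeing the data. Leaving out 1 array gave from 0 to 1. Without the filter 26263 genes were tested. Kdr reversed without scaling (-0.047), with spike-ins (-0.26), with the mean of its probes (-0.19) and on its other probe (-0.73). Tek reversed without scaling (-0.38), with median (-0.050), spike-in (-0.59) and normexp quantile (-0.036) scaling, and ran from -0.26 to 0.26 with 1 array left out. Spike-ins with outlier spots left out reversed Pecam1 (-0.13) and Ramp2 (-0.052). Esam ran from -0.15 to 0.014 with 1 array left out. Flt1, Tie1, Plvap, Cdh5 and Emcn kept their direction under all 15 alternatives. Of the calls, 53.2% were higher, against 8.92% without scaling, 4.79% with spike-ins and 42.8% with median scaling. The calls over all genes, 1565 higher and 1376 lower, became 750 and 7654 without scaling, 342 and 6805 with spike-ins, 2990 and 2055 with normexp and the 75th percentile, 156 and 67 without the filter, 1014 and 902 with the replicate block, 800 and 626 without vehicle replicate 1, 335 and 293 without GKA replicate 1, and 265 and 119 without GKA replicate 2. Normexp with quantile scaling gave 1956 and 2067. The labels do not say whether same-numbered replicates belong together, so neither the main fit nor the replicate block can be preferred on that ground. The cause of these shifts was not tested.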
